A study of Homo sapiens with 6 samples.

Results

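The genes described here are 10 members of the BCL2 family, the proteins that set whether the mitochondrial outer membrane stays intact or is opened during apoptosis. They were taken from the gene table by symbol, as the rows named BCL2, BCL2L1, MCL1, BAX, BAK1, BCL2L11, BID, BBC3, PMAIP1 and BMF, and all 10 were found among its 35269 rows. The measurements were made in Rh30, an established cell line of fusion-positive rhabdomyosarcoma, a childhood soft tissue cancer driven by the PAX3-FOXO1 fusion protein. Cells were given DMSO alone, the vehicle, or YK-4-279 at 1 µM for 24 hours, and polyadenylated RNA of 3 libraries per group was sequenced. YK-4-279 is a small molecule described as an inhibitor of ETS transcription factors. The design has 1 cell line, 1 dose and 1 time. The labels do not say whether the libraries came from separate cultures, so the p-values below measure only the spread between these libraries, which may be technical.

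Values are normalized counts, that is, reads per gene divided by 1 factor per library. The libraries held 16724650, 20771226 and 24677433 reads in DMSO replicates 1, 2 and 3, and 23230675, 18752655 and 19876724 in YK-4-279 replicates 1, 2 and 3. Of the 10 members, BBC3 had the fewest reads, between 34 and 108 per library, and MCL1 the most, between 3618 and 5607. Two-sided limma tests used log2(normalized count + 1) of 13930 genes, those whose mean reached 10 normalized counts, and p-values were adjusted by the Benjamini-Hochberg method over all of these genes. All 10 members passed this minimum. A gene was called when its adjusted p was under 0.05. The added 1 tends to draw the log2 fold changes of genes with few reads toward 0. Values from other tools need not be larger. For BBC3 the value was 0.52 on this scale, beside 0.46 in edgeR and 0.47 in DESeq2.

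The labelled cell type was checked against marker genes. MYOD1, the master regulator of the muscle lineage and the most abundant of the 8 myogenic markers, lay between 34516 and 39146 normalized counts in the 6 libraries, and MYOG, DES, FGFR4, CHRNA1 and CDH15 were abundant too. PAX3 had a mean of 1688. MYH3, an embryonic myosin of later differentiation, was low, at a mean of 52.5. The immune markers PTPRC, CD3E and LYZ had at most 1.67 normalized counts in any library, and their summed level was between 0 and 1.998. Among the 3 epithelial markers KRT5 was listed at 0 in each library and CDH1 was at most 1.71, while EPCAM lay between 50.1 and 88.3. PECAM1, the most abundant of the 3 endothelial markers, lay between 14.1 and 29.0. None of the 8 myogenic markers was called in either direction by limma, edgeR or DESeq2. Their log2 fold changes were positive for 4 and negative for 4, between -0.12 (FGFR4) and 0.60 (MYH3), with a median of 0.03. In limma 3 of the 8 had an unadjusted p under 0.05, beside 18.7% of all genes tested. Those 3, named after their values were seen, were MYOG, DES and MYH3, with log2 fold changes of 0.23, 0.14 and 0.60. In each of them every treated library was above every DMSO library, as for 10.9% of all genes tested. In the fit without DMSO replicate 1 their log2 fold changes were 0.08, 0.08 and 0.52, none of the 3 called. CDH15 and FGFR4 were called lower there, in a fit that called 8.46% of all genes tested lower. The summed level of the myogenic list was lowest in DMSO replicate 1, at 91235, and lay between 97542 and 106137 in the other 5 libraries.

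DMSO replicate 1 was unlike the rest. Its mean correlation with them across tested genes was 0.989, and that of each other library was 0.992 or higher. Its share of mitochondrial reads was 6.05%, and the other libraries lay between 4.74% and 5.03%. It was low for GC-rich genes. Over the 2018 tested genes with a GC content of at least 60% its median deviation from the mean of the 6 libraries was -0.21 (log2), and over the 1588 genes under 40% it was 0.20. In the other libraries these medians lay between -0.00 and 0.10 for the GC-rich genes, and between -0.09 and -0.00 for the GC-poor genes. The 3 members of highest GC content, BBC3 (64.5%), BAX (60.6%) and BAK1 (58.7%), each had their lowest DMSO value in that library. That library was the lowest of DMSO for 7 of the 10 members, among them MCL1 (45.4%) and BID (52.6%), and the highest for 2. The share over all genes tested was not counted. Values below are over all 6 libraries, and values without DMSO replicate 1 follow where a result rests on it.

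As background, the family falls into 3 classes. The pro-survival proteins, here BCL2, BCL2L1 (BCL-XL) and MCL1, bind and restrain the other classes. BAX and BAK1 form the pores through which cytochrome c leaves the mitochondria, and the BH3-only proteins, here BCL2L11 (BIM), BID, BBC3 (PUMA), PMAIP1 (NOXA) and BMF, sense stress and either block the pro-survival proteins or activate BAX and BAK1 directly. Many of these proteins are controlled by cleavage, phosphorylation, binding and turnover, which transcript counts do not measure. In fusion-positive rhabdomyosarcoma, BCL2L1 and PMAIP1 have been described as targets of PAX3-FOXO1.

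With YK-4-279, BMF was the 1 member of 10 that was called, and it rose to 1.95 times its DMSO mean. In the same fit 475 of the 13930 genes tested were called, a share of 3.41%, with 1.26% called higher and 2.15% called lower. With 1 call among 10, the result is one about BMF and not about the family. The other 9 members had log2 fold changes between -0.22 (BID) and 0.52 (BBC3), none of them called. Without DMSO replicate 1, 3 of the 10 members were called, BMF higher and BID and BAX lower. In that fit 13.1% of all genes tested were called, 4.62% higher and 8.46% lower. The count of called genes moved with the library left out, from 475 to 1823 without DMSO replicate 1, 676 without DMSO replicate 2, 242 without DMSO replicate 3, and 19, 23 and 46 without YK-4-279 replicate 1, 2 and 3. The last 5 are 4.85%, 1.74%, 0.136%, 0.165% and 0.33% of all genes tested, and in each of these 5 fits BMF was the 1 member called. Of the 19, 23 and 46 genes, 15, 16 and 28 were called higher and 4, 7 and 18 lower. After correction for GC content and length, 14.4% of all genes tested and 2 of the 10 members were called, BMF higher and BID lower. In bulk RNA, a change in every cell and a change in the share of cells that carry a transcript cannot be told apart.

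The median log2 fold change of the 10 members was 0.04, beside -0.01 over all genes tested. It was 0.03 over the 3 pro-survival members and 0.05 over the 7 pro-death members. Without DMSO replicate 1 the 2 medians were 0.05 and 0.03, beside -0.01 over all genes, and all 3 pro-survival members had positive values there, between 0.02 and 0.07. The pro-death median was 0.08 without DMSO replicate 2, 0.02 without DMSO replicate 3, and 0.01 over genes with a mean of at least 100, where BBC3 was not tested. No test was made of either class. When BMF was left out, the other 6 pro-death members had a median of 0.01, and of -0.01 without DMSO replicate 1.

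**Figure D1:**
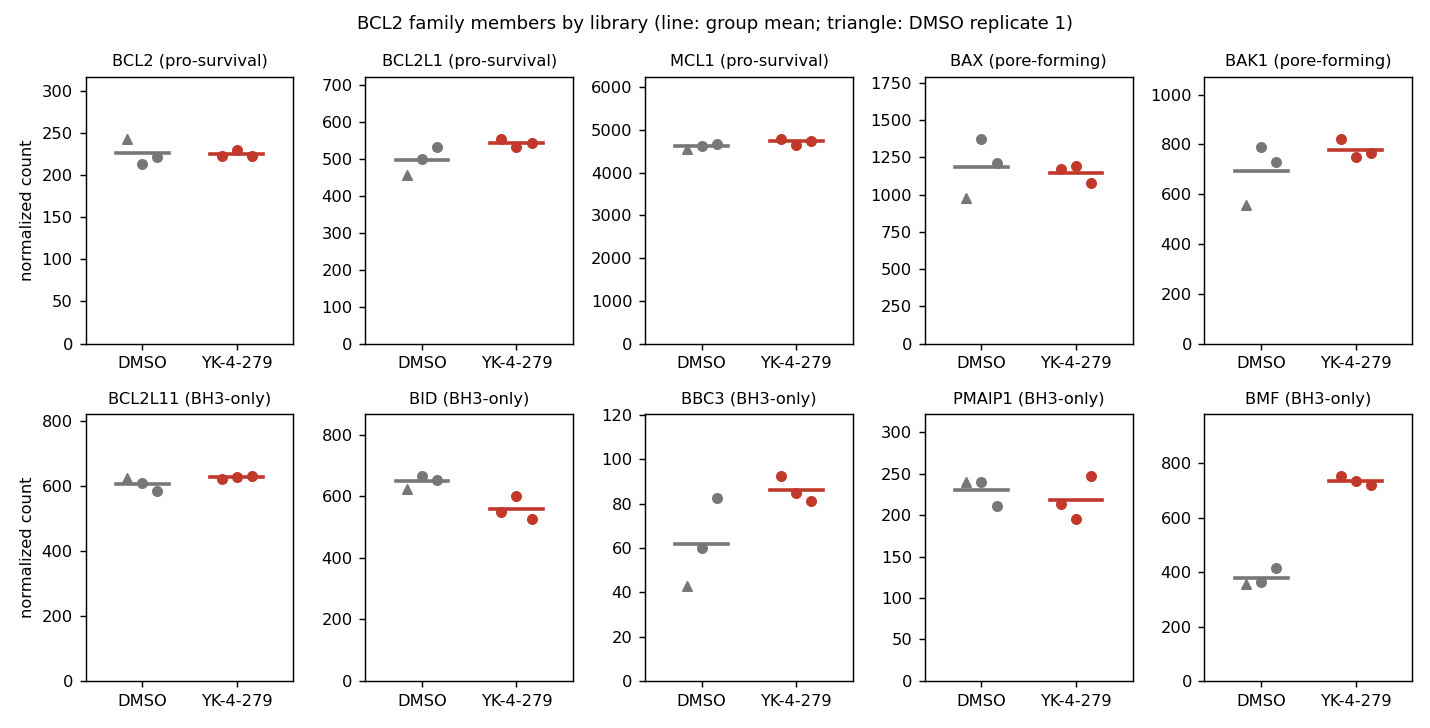
Normalized counts of the 10 members in each library, on axes that start at 0, for the 3 DMSO libraries (grey, replicate 1 as a triangle) and the 3 YK-4-279 libraries (red), with a line at each group mean. BMF lies between 356 and 417 in DMSO and between 722 and 754 with YK-4-279, and BID is the other member whose groups do not overlap.

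MCL1, a short-lived pro-survival protein, had 4562, 4638 and 4682 normalized counts in DMSO replicates 1, 2 and 3, and 4801, 4656 and 4746 with YK-4-279. The groups overlapped, and the log2 fold change was 0.03 with a 95% interval of -0.08 to 0.15 (standard error 0.05, limma adjusted p = 0.781). The interval was the narrowest of the 10 members. BCL2, the founding member, had 243, 213 and 221 in DMSO and 223, 230 and 223 with the drug. Its log2 fold change was -0.00, with an interval of -0.22 to 0.22 (limma adjusted p = 0.999), and its sign changed with the scaling and with the library left out.

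BCL2L1 had 458, 501 and 533 normalized counts in DMSO, and 555, 532 and 542 with YK-4-279. The highest DMSO library and the lowest treated library were nearly equal, and the log2 fold change of 0.13 was not called (interval -0.05 to 0.31, limma adjusted p = 0.425). It was 0.07 without DMSO replicate 1 (limma adjusted p = 0.581). Both BCL2L1 and MCL1 make splice forms of opposite function, as BCL2L11 makes forms of different potency. GENCODE lists 13 coding transcripts for BCL2L1, 5 for MCL1 and 6 for BCL2L11, and counts per gene cannot tell them apart. Of the BCL2L1 exon bases 41.3% are shared with ABALON, a gene on the opposite strand that was listed at 0 in each library.

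BAX, the pore former that moves from the cytosol to mitochondria, had 976, 1375 and 1212 normalized counts in DMSO and 1171, 1190 and 1080 with YK-4-279. DMSO replicate 1 was the lowest of the 6 libraries and DMSO replicates 2 and 3 were the highest. The log2 fold change was -0.04 over all libraries (standard error 0.10, limma adjusted p = 0.882) and -0.17 without DMSO replicate 1 (standard error 0.06, limma adjusted p = 0.0347). It was 0.08 without DMSO replicate 2, 0.01 without YK-4-279 replicate 3 and 0.00 under quantile normalization, none of these 3 called, so its sign rested on which libraries entered and on the scaling.

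BAK1, the pore former that resides at mitochondria, had 557, 789 and 731 in DMSO and 823, 749 and 764 with the drug. The 3 treated libraries lay around the upper 2 DMSO libraries. The log2 fold change was 0.18 over all libraries and 0.03 without DMSO replicate 1 (limma adjusted p = 0.397 and 0.796). It was 0.29 without DMSO replicate 2 (limma adjusted p = 0.129). After a correction of each library for GC content and gene length, BAX and BAK1 had log2 fold changes of -0.15 and 0.07, neither called (limma adjusted p = 0.0942 and 0.509).

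BMF, a BH3-only protein known for binding a dynein light chain and for its part in death after loss of attachment, had 356, 363 and 417 normalized counts in DMSO replicates 1, 2 and 3. With YK-4-279 it had 754, 736 and 722. Every treated library was above every DMSO library, and the spread within a group was small beside the difference. The mean rose from 378 ± 33.4 to 737 ± 15.9 (SD of 3 libraries), which is 0.96 on the log2 scale, with a 95% interval of 0.78 to 1.15 (standard error 0.08, limma adjusted p = 1.28e-04). Groups did not overlap, with every treated library higher, for 10.9% of all genes tested, and BMF was the 1 member of that kind.

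Among all 13930 genes tested BMF ranked 3 by p-value, and its log2 fold change ranked 91 from the top. The call held in 17 of 17 alternative fits, with log2 fold changes between 0.90 and 1.04, and the highest adjusted p was 0.0263, in limma without a trend. With DMSO replicate 1 left out the log2 fold change was 0.92. On reads recovered from the normalized counts, which were between 282 and 880 per library for BMF, edgeR gave 0.98 (adjusted p = 9.79e-05).

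BMF lies on the minus strand of chromosome 15 at chr15:40087890-40108892 (hg38, GENCODE). With the same test, 10 other genes with ends within 250 kb of it were tested, and 1 of these 10 was called, beside 3.41% of all genes tested. That gene, CCDC9B, named after its value was seen, rose from 517 to 733 normalized counts (log2 fold change 0.52, standard error 0.10, limma adjusted p = 0.0184). This call is from the fit over all libraries, and no alternative fit is given for the neighbours. The other neighbours lay between -0.21 (BUB1B) and 0.68 (DISP2) on the log2 scale. An antisense gene shares 8.46% of the BMF exon bases, and whether the counting used strand is not given in the sources used here.

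The 2 promoter windows that RefSeq gives for BMF are shown because BMF was the member that rose and the drug is described as acting on ETS factors. Each holds the 250 bases before and the 50 bases after a transcription start (GRCh38.p14, minus strand, written 5′ to 3′). The first is chr15:40108830-40109129, with 63 bases in an exon of the GENCODE gene model and 237 outside the gene. The second is chr15:40106917-40107216, which lies wholly in an intron, with a start 1913 bases further into the gene. Capitals mark the ETS core GGAA and its reverse complement TTCC, and the E-box CAGCTG, a form bound by MYOD1, which is its own reverse complement.
BMF first start: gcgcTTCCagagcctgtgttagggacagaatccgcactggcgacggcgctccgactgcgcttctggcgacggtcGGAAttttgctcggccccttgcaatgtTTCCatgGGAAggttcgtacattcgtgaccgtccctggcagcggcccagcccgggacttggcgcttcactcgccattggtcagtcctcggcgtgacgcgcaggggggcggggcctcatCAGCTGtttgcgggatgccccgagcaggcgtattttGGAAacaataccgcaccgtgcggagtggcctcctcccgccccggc
BMF second start: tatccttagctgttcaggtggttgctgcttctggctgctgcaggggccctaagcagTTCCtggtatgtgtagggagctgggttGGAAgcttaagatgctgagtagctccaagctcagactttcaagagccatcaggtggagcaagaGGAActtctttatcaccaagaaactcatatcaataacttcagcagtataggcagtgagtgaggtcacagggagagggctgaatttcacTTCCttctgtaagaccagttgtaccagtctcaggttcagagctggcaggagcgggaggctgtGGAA
The ETS core occurred 5 times in each window, and no capital run joins 2 motifs. At least 1 core was found in 95.4% of 34943 RefSeq windows of the same length, with a median of 3 per window. CAGCTG occurred 1 time in the first window and 0 times in the second, and 17.9% of all windows held it. The longer ETS form CCGGAA, which contains the core, was in neither BMF window (17.2% of all windows, and 25.9% of those of tested genes). Nor was the forkhead motif GTAAACA (3.42% and 2.55%), and both were searched on both strands. Windows were found for 9 of the 10 members, all but MCL1. The ETS core was as frequent as in BMF, or more so, in windows of members that were not called higher, with 7 in BBC3, 5 in PMAIP1 and up to 6 in the windows of BID, and BAX and BCL2L11 held none. Of the other motifs, 1 of the 2 BCL2L1 windows held CCGGAA, and BCL2L11 held GTAAACA. These motifs were chosen with the fold changes known, and a match is a description of letters, not of binding.

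BID, which links death receptors to mitochondria once cleaved by caspase 8, had 624, 665 and 654 normalized counts in DMSO, and 548, 601 and 526 with YK-4-279. Every treated library was below every DMSO library, as for 15.1% of all genes tested, and BID was the 1 member of that kind. The mean was 648 ± 21.3 in DMSO and 558 ± 38.5 in treated cells (SD of 3 libraries). The log2 fold change of -0.22 (interval -0.39 to -0.04) missed the threshold over all libraries (limma adjusted p = 0.166). It was -0.24 and passed without DMSO replicate 1 (limma adjusted p = 0.0147), and -0.26 after correction for GC content and length (limma adjusted p = 0.0131). In edgeR and DESeq2 it was not called (adjusted p = 0.193 and 0.257).

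BBC3, a potent BH3-only protein, had 42.9, 59.95 and 82.7 normalized counts in DMSO and 92.5, 84.8 and 81.0 with YK-4-279. The DMSO libraries were spread widely, and the highest of them lay among the treated libraries. The log2 fold change of 0.52 had a wide interval of 0.06 to 0.98 and was not called (limma adjusted p = 0.210). Without DMSO replicate 1 it was 0.28, with an interval of -0.08 to 0.65 (limma adjusted p = 0.343). Without DMSO replicate 3, the highest of the DMSO libraries, it was 0.75 (limma adjusted p = 0.0792).

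BCL2L11, which binds all the pro-survival proteins, had 623, 608 and 585 normalized counts in DMSO and 620, 627 and 630 with the drug. Its log2 fold change was 0.05, with an interval of -0.11 to 0.21 (limma adjusted p = 0.765). PMAIP1, which mainly neutralises MCL1, had 240, 240 and 211 in DMSO and 213, 196 and 247 with the drug, with a log2 fold change of -0.08 and an interval of -0.33 to 0.17 (limma adjusted p = 0.762). Neither was called in any of the 6 fits that leave out 1 library. Both small values moved with the library, that of BCL2L11 to 0.02 without DMSO replicate 3. That of PMAIP1 moved to -0.05 without DMSO replicate 1 or 2, to -0.14 without DMSO replicate 3, and to -0.00 and -0.17 without YK-4-279 replicates 2 and 3. In BCL2L11, 10.8% of exon bases are shared with MIR4435-2HG, a gene on the opposite strand with a mean of 447 normalized counts.

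**Figure D2:**
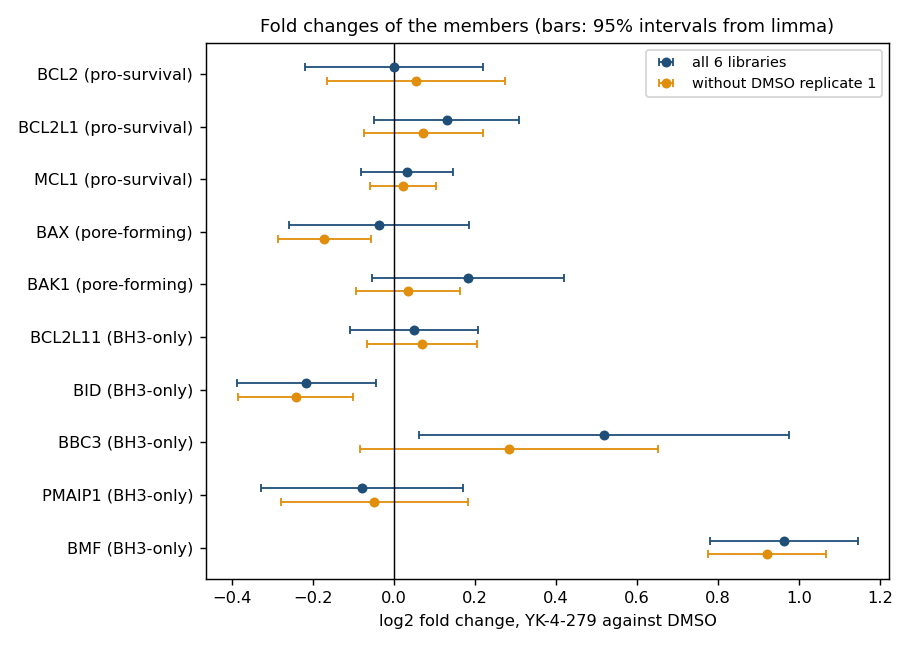
Log2 fold changes of the 10 members with YK-4-279 against DMSO, with 95% intervals from limma, over all 6 libraries (blue) and without DMSO replicate 1 (orange). BMF lies at 0.96 and 0.92, away from the other members, BID lies at -0.22 and -0.24, and BBC3 moves from 0.52 to 0.28 when the library is left out.

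To compare levels between genes, normalized counts were divided by the kilobases of each gene's exons. In DMSO the order was MCL1 (744 ± 9.72 per kilobase, SD, n = 3), BAX (459 ± 77.6), BAK1 (313 ± 54.6), BID (147 ± 4.82) and BCL2L1 (118 ± 8.96), then PMAIP1 (105 ± 7.52), BCL2L11 (89.8 ± 2.80), BMF (69.5 ± 6.13), BBC3 (19.4 ± 6.27) and BCL2 (17.9 ± 1.25). The libraries of 2 pairs of neighbours overlapped, BCL2L1 with PMAIP1 and BBC3 with BCL2. With YK-4-279 the level of BMF was 135 ± 2.92 per kilobase, and its place went from 8 to 4, with a mean above those of BCL2L1 (129 ± 2.72) and BID (126 ± 8.70). The lowest BMF library was at 133 per kilobase and the highest BCL2L1 library at 132, so these neighbours were barely separate. The highest BID library was at 136, so BID overlapped with both BMF and BCL2L1.

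The order depends on the length used, because not every annotated exon need be in the transcripts these cells make. Per kilobase of the MANE Select transcript, the representative transcript of a gene, BAX was first in DMSO (1494 ± 252) and MCL1 second (1171 ± 15.3). On that length BMF went from place 8 (80.6 ± 7.11) to place 6 (157 ± 3.39), below BID (256 ± 17.7) and BCL2L1 (211 ± 4.44). By group means BCL2 was the lowest member on both lengths and in both groups. In DMSO replicate 1, however, BBC3 was lower, at 13.5 per kilobase of exon against 19.3 for BCL2.

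**Figure D3:**
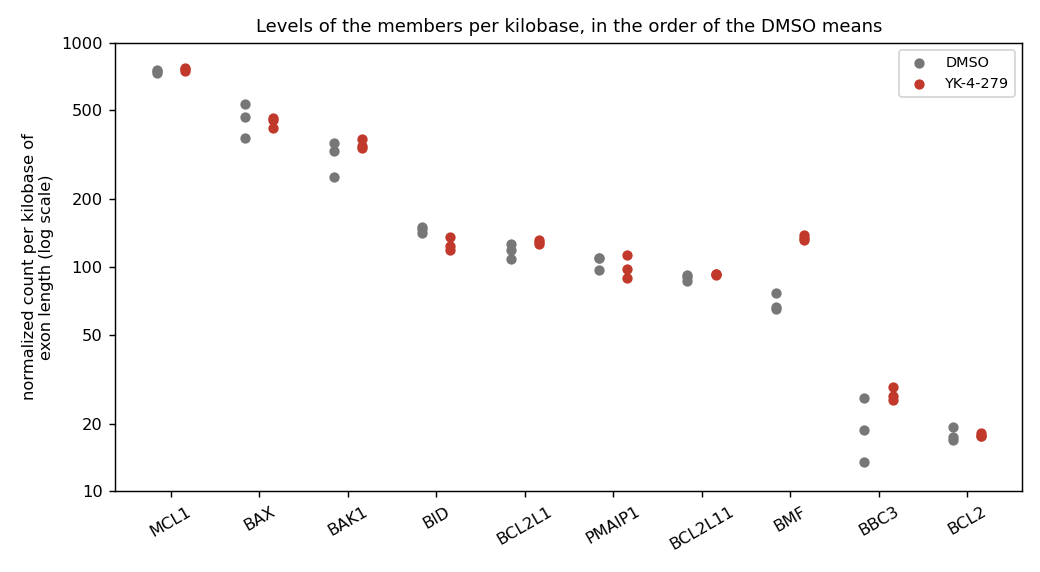
Normalized counts per kilobase of exon length on a log axis, 1 point per library, with members in the order of their DMSO means, DMSO in grey and YK-4-279 in red. MCL1 is highest near 744 and BCL2 lowest near 17.9, and the treated BMF libraries lie near 135, above its DMSO libraries near 69.5.

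The 5 BH3-only members together amounted to 431 ± 7.50 normalized counts per kilobase of exon in DMSO and 482 ± 1.86 with YK-4-279 (SD, n = 3 each), and the groups did not overlap. The means went from 69.5 to 135 for BMF, from 89.8 to 92.8 for BCL2L11 and from 19.4 to 27.0 for BBC3. Those of BID and PMAIP1 went down, from 147 to 126 and from 105 to 100. BMF made up 16.1% ± 1.31 of the sum of the 5 in DMSO and 28.1% ± 0.681 with the drug. The share of BID was 34.04% ± 0.543 in DMSO and 26.2% ± 1.90 with the drug. In each DMSO library BID was the largest of the 5. BMF was the largest in YK-4-279 replicates 1 and 3, and BID, at 28.3% against 28.1%, in YK-4-279 replicate 2. Per kilobase of MANE Select transcript BMF went from 12.4% to 22.5% and BID, at 45.7% and 36.7%, stayed the largest. Shares of 1 sum are tied together, so a larger share of BMF lowers the others.

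**Figure D4:**
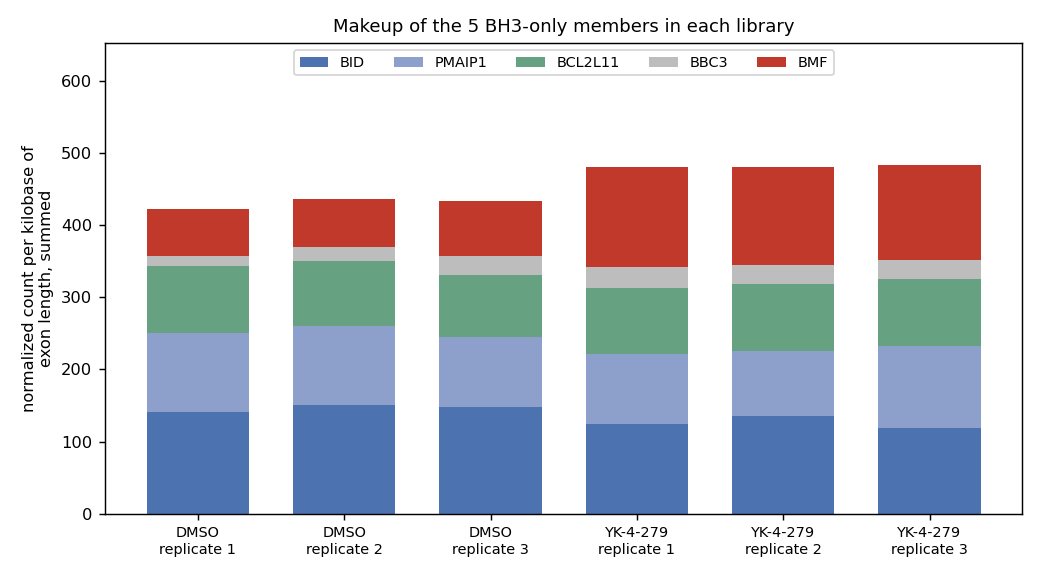
Summed normalized counts per kilobase of exon length of the 5 BH3-only members in each of the 6 libraries, stacked by gene. The BMF part grows from 16.1% to 28.1% of the sum on average, while the sum goes from 431 to 482.

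As a description with no test, the summed level of the 7 pro-death members was divided by that of the 3 pro-survival members in each library, per kilobase of exon. The ratio was 1.22, 1.5 and 1.37 in DMSO replicates 1, 2 and 3, and 1.42, 1.43 and 1.37 with YK-4-279. The groups overlapped, and the log2 difference of 0.05 was smaller than the spread between libraries (SD 0.11). Without DMSO replicate 1 it was -0.03. With BMF left out of the pro-death sum it was -0.03 over all 6 libraries too, and -0.11 without DMSO replicate 1. So the sign of this small difference rested on that library and on BMF. It also depended on how members were weighted. Not divided by length, the log2 difference was 0.09, and 0.03 without DMSO replicate 1. Per kilobase of MANE Select transcript, where the groups overlapped, the log2 difference was -0.02, and -0.11 without DMSO replicate 1. With the geometric mean of each class, which gives each member equal weight, the ratio was 0.888, 1.05 and 1.02 in DMSO and 1.10, 1.08 and 1.08 with YK-4-279. By that measure every treated library was above every DMSO library, with a log2 difference of 0.14 (SD 0.09), and 0.07 without DMSO replicate 1. Nearly all of it was BMF, since with BMF left out the log2 difference of the geometric means was 0.02 over all 6 libraries and -0.06 without DMSO replicate 1. BMF alone over the pro-survival sum was 0.0758, 0.0755 and 0.0853 in DMSO and 0.1502, 0.151 and 0.146 with YK-4-279. BAX over BCL2, on normalized counts, was 4.01, 6.46 and 5.48 in DMSO and 5.26, 5.17 and 4.84 with the drug, and the treated libraries lay within the range of the DMSO libraries. That overlap rested on DMSO replicate 1, without which every treated library was below both DMSO libraries and the log2 difference went from -0.04 to -0.23.

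Beyond the 10 members, 9 lists with 62 other genes, of the apoptosis pathway and of transcription factors that include PAX3 and ETS1 for their place in the study, held 51 tested genes, of which 3 were called, 1 higher and 2 lower. This is 5.88% of them, beside 3.41% of all genes tested, and their median log2 fold change was 0.01. At an unadjusted p under 0.05 the shares were 25.5% of the 51 and 18.7% of all genes tested, against which the unadjusted counts of single lists below are to be read. The calls were BNIP3, TP73 and DDIT3. The 4 tested genes of the other pro-survival, pore-forming and BH3-only lists were not called by limma, edgeR or DESeq2, though DESeq2 gave no adjusted p for BCL2L10. Of the 4 genes, 1, BOK, had an unadjusted p under 0.05. BCL2L2 (BCL-W), pro-survival, had a log2 fold change of 0.03. BCL2L10, also pro-survival and named after its values were seen, had few reads, with a mean of 13.0 normalized counts. Its log2 fold change was 0.63, with every treated library above every DMSO library (standard error 0.37, limma adjusted p = 0.379). BOK, another pore former, had 0.28 (limma adjusted p = 0.186). Without DMSO replicate 1 BOK was at 0.16 (limma adjusted p = 0.208), and without DMSO replicate 2 at 0.39, where it was called (limma adjusted p = 0.0453). BAD, a BH3-only protein, was low, at a mean of 56.0 normalized counts, with a log2 fold change of 0.22, and of 0.03 without DMSO replicate 1 and 0.37 without DMSO replicate 3. The pro-survival BCL2A1 was listed at 0 in each library, and the BH3-only genes BIK and HRK were below the minimum, at means of 4.75 and 3.61.

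BNIP3, a mitochondrial protein of hypoxia and mitophagy, had 815, 754 and 736 normalized counts in DMSO and 623, 598 and 606 with YK-4-279. The groups did not overlap, and it fell by 0.33 on the log2 scale (standard error 0.07, limma adjusted p = 0.0284). It was the 1 call among 4 tested relatives of the family. All 4 had negative values, as had 7246 of the 13930 genes tested. BCL2L13, the most abundant of the 4 over all 6 libraries, though not in DMSO, was at -0.01 and changed sign with the scaling.

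TP73, a transcription factor that can activate BBC3 and other death genes, had 1081, 1253 and 1217 normalized counts in DMSO and 932, 837 and 889 with YK-4-279. It fell by 0.42 (standard error 0.08, limma adjusted p = 0.0119), and the groups did not overlap. DDIT3 (CHOP), the stress factor that activates BCL2L11 and other death genes in the unfolded protein response, had 414, 432 and 418 in DMSO and 554, 531 and 513 with the drug. It rose by 0.34 (standard error 0.08, limma adjusted p = 0.0360), again with no overlap. ATF4, the most abundant of the 9 transcription factors over all 6 libraries, though not in DMSO, and upstream of DDIT3, was at 0.07 (limma adjusted p = 0.540). FOXO3 was at 0.01 and ETS1, an ETS factor, at 0.01, neither called. ATF4 was at 0.04, FOXO3 at 0.03 and ETS1 at 0.03 without DMSO replicate 1, none of these 3 called. FOXO3 and ETS1 were named after their values were seen. Reads of the PAX3-FOXO1 fusion transcript fall on PAX3 and FOXO1, so the values of these genes mix the fusion with the intact genes.

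The log2 fold changes of these 3 genes kept their size when 1 library was left out, between -0.36 and -0.29 for BNIP3, between -0.48 and -0.37 for TP73 and between 0.31 and 0.37 for DDIT3. Some of their calls were lost in the 4 of these fits that called fewer genes in all, between 19 and 242. BNIP3 and DDIT3 lost their calls without DMSO replicate 3 (limma adjusted p = 0.0610 and 0.104), and without YK-4-279 replicate 1, 2 or 3 (0.137, 0.159 and 0.144 for BNIP3, and 0.224, 0.163 and 0.126 for DDIT3, limma adjusted p). TP73 lost its call without YK-4-279 replicate 1, 2 or 3 (limma adjusted p = 0.0847, 0.109 and 0.0840). All 3 were called in edgeR (adjusted p = 0.0325, 0.0255 and 0.0150 for BNIP3, DDIT3 and TP73) and in DESeq2 (adjusted p = 0.0149, 0.0147 and 5.29e-04). Other limma fits ended calls. BNIP3 and DDIT3 were not called with quantile normalization (limma adjusted p = 0.0534 and 0.0517) or with a replicate block (limma adjusted p = 0.0784 and 0.0984). None of the 3 was called by limma without a trend (adjusted p = 0.109, 0.1005 and 0.111 for BNIP3, DDIT3 and TP73).

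In the list of 15 caspases and mitochondrial death factors all 15 were tested. None was called by limma on the deposited values of all 6 libraries (3 had an unadjusted p under 0.05). Neither edgeR nor DESeq2 called any of the 15, though DESeq2 gave no adjusted p for CASP10. CASP8 and HTRA2, both with every treated library higher, had the smallest p-values among them. CYCS, cytochrome c and the most abundant, was at -0.09. Over the same libraries none of 6 tested inhibitor of apoptosis genes was called by limma, edgeR or DESeq2 (1 had an unadjusted p under 0.05). For NAIP, however, DESeq2 gave no adjusted p. BIRC6, the most abundant, was at 0.01, and at 0.09, -0.06 and -0.01 without DMSO replicate 1, DMSO replicate 2 and YK-4-279 replicate 1. Of 9 death receptor and adaptor genes 5 were tested and none was called over the same libraries by limma, edgeR or DESeq2 (1 had an unadjusted p under 0.05). TNFRSF10B, the most abundant and a receptor of TRAIL, was at 0.17 (limma adjusted p = 0.157), and at 0.14 and called after correction for GC content and length (limma adjusted p = 0.0474), while FASLG and TNFRSF10A were listed at 0 in each library and FAS had a mean of 6.79. Of 8 partners and turnover factors none was called over these libraries by limma, edgeR or DESeq2 (1 had an unadjusted p under 0.05), and HUWE1, the most abundant, a ligase for MCL1, was at -0.04. DYNLL1 and DYNLL2, the dynein light chains, were at -0.05 and 0.19 (limma adjusted p = 0.656 and 0.246), and DYNLL2 was at 0.08 without DMSO replicate 1.

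Without DMSO replicate 1, 8 of the 51 genes were called, 3 higher and 5 lower, in a fit that called 13.1% of all genes tested. Without DMSO replicate 2 the count was 6 (4.85% of all genes tested were called there), without DMSO replicate 3 it was 1, and without YK-4-279 replicate 1, 2 or 3 it was 0 each time in limma, with 8, 8 and 9 of the 51 genes at an unadjusted p under 0.05. These are 15.7%, 15.7% and 17.6%, beside 11.7%, 13.7% and 13.2% of all genes tested in the same fits. With all libraries edgeR and DESeq2 each called 3. After correction for GC content and length it was 11, in a fit that called 14.4% of all genes tested, among them CASP8, CASP2 and HTRA2 of the caspase list, BIRC5, TNFRSF10B and BNIP3L. To BNIP3, TP73 and DDIT3 leaving out DMSO replicate 1 added CASP8 (0.30) and HTRA2 (0.23), higher, and BIRC5 (-0.18), E2F1 (-0.32) and FOXO1 (-0.14), lower, with limma adjusted p-values of 0.0268, 0.0303, 0.00170, 1.45e-07 and 0.0471. With no library left out these 5 were at 0.29, 0.32, -0.14, -0.22 and -0.25, so HTRA2 and FOXO1 lay nearer 0 in the fit that called them. Both were called without DMSO replicate 2 and after the GC correction too. These 5 genes, CASP2, BNIP3L and the light chains above were named after their values were seen. CASP8 is the protease that cleaves BID, E2F1 is a cell cycle factor that activates several BH3-only genes, and BIRC5 (survivin) is a gene of mitosis as well as of apoptosis.

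**Figure D5:**
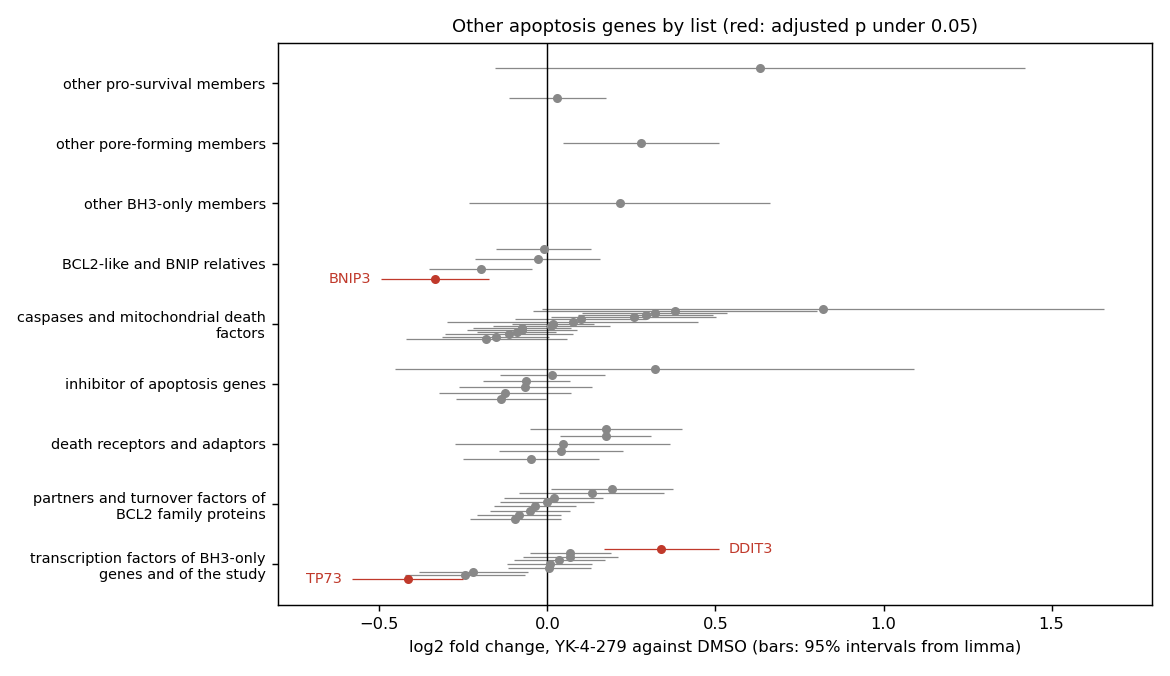
Log2 fold changes of the 51 tested genes in 9 lists of apoptosis genes and transcription factors outside the 10 members, with 95% intervals from limma over all 6 libraries, genes with an adjusted p under 0.05 in red. BNIP3 and TP73 lie at -0.33 and -0.42 and DDIT3 at 0.34, and the other genes were not called.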

How the data were processed

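Polyadenylated RNA of 6 Rh30 libraries was sequenced. The authors, per the labels, made reads with bcl2fastq, checked them with FastQC 0.11.8 and MultiQC 1.8, aligned them to hg38 with STAR 2.7.9a, used DESeq2 1.44.0, and deposited 1 table of normalized counts per gene, which is the signal used here. How the normalization was done was not stated. Each column, divided by the value of 1 read, gave whole numbers for 100% of its values (tolerance 0.001), and these recovered reads were used for edgeR 4.0.16 and DESeq2 1.42.0 (465 and 623 genes called). The main test was limma 3.58.1 under R 4.3.3 (lmFit, eBayes with trend, no block). It had been tested on simulated counts, which held no GC trend of a single library such as that of DMSO replicate 1. All 6 columns were used, and 1 unnamed row was dropped. Lengths, GC content and positions came from GENCODE 44, promoter windows from RefSeq. All 10 members were named, with the most abundant tested gene of each pathway list and up to 3 called ones. The members and lists were chosen with earlier results of these data known. The ratio per kilobase of MANE Select transcript, the geometric mean without BMF and the alternatives for pathway genes were chosen after seeing the data, as were the motifs. Alternatives were other pseudocounts (0.5 and 10), mean minimums, scalings, variance settings and tools, GC content and length trends removed, and each library left out.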

Additional observations from a re-analysis of the deposited data

How the results depend on the processing

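Of the members' values under alternatives, 156 kept their direction and their side of the threshold, 3 newly passed it and 10 changed sign. The call of BMF held in all 17. Fits with another mean minimum, without a trend or with a replicate block leave a member's log2 fold change unchanged, so only its call could move there. BBC3 was not tested at a mean of at least 100. The count of called genes (475, 37.1% of them higher) was 277 (47.7% higher) with quantile normalization, 33 (90.9% higher) with eBayes without trend, 1972 (25.5% higher) after GC correction, and 19 to 1823 with 1 library left out. With a replicate block it was 180, and 1 pathway gene was called. The same-number correlations were -0.10, -0.03 and -0.03, and the best matches of replicates 1, 2 and 3 were 2, 1 and 1. These correlations showed no pairing by number, but with 3 libraries per group they cannot exclude it. Members called were 2 after GC correction and 1 to 3 with 1 library left out. Pathway genes called were 1 with quantile normalization, 0 by limma with eBayes without trend (3 by edgeR and by DESeq2, 11 at an unadjusted p under 0.05 in that limma fit), 11 after GC correction, and 0 to 8 with 1 library left out. The pro-survival median was 0.081 with quantile normalization and 0.023 to 0.054 with 1 library left out. Signs changed for BCL2 (TMM 0.018, GC correction 0.024, edgeR 0.0196, DESeq2 0.015, library left out -0.042 to 0.054), BAX (quantile 0.0026, library left out -0.17 to 0.075), BCL2L2 (GC correction -0.021, library left out -0.00068 to 0.057), BCL2L13 (TMM 0.0079, quantile 0.034, edgeR 0.0092, DESeq2 0.0051, library left out -0.0597 to 0.028), BIRC6 (library left out -0.065 to 0.095), HUWE1 (quantile 0.017, library left out -0.067 to 0.0011) and ATF4 (GC correction -0.0096), and for the pro-death to pro-survival ratio (MANE Select length -0.018, library left out -0.032 to 0.12). The cause was not tested. Of the members BBC3 had the fewest reads, 34 to 108 per library.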
